A study of Homo sapiens with 3 samples.

Results

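Smooth muscle actin cytoskeleton genes and genes of the matricellular CCN family were followed in LvM3b, a liver-metastatic human colon adenocarcinoma line, at 10 genes: TAGLN, TAGLN2, ACTG2, ACTA2, MYL9, CNN2, CALD1, TPM1, CTGF (now CCN2) and CYR61 (now CCN1). They are 10 of 25200 gene symbols on an Illumina bead array, and their 21 probes were taken by symbol from its 48803 probes. The genes had been selected from differences already seen in these same arrays. All of their values are therefore a description, and none is offered as a test. The 3 groups were control LvM3b cells, LvM3b cells overexpressing miR-483-5p (named miR-483 in the sample label) and LvM3b cells overexpressing miR-551a, all grown in DMEM with serum and harvested below confluence. Each group had 1 array, so no value below has a replicate error and no p-value was computed. How the microRNAs were expressed, and whether clones or pools were used, is not stated in the labels or file headers. Genes that these microRNAs suppress were the question of the study.

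MicroRNAs lower the output of messenger RNAs that pair with their seed, the bases near the 5′ end. The mature sequence of miR-551a (RefSeq, GRCh38.p14, chr1:3560710-3560730 on the minus strand) is shown because it defines 1 of the compared groups, with the seed, bases 2 to 8, in capitals.
hsa-miR-551a: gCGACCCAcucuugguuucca

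Contractile cells use a shared set of actin filament proteins. Smooth muscle actins (ACTA2, ACTG2) form the filaments, tropomyosin (TPM1), caldesmon (CALD1), calponins (CNN2) and transgelins (TAGLN, TAGLN2) bind them, and the myosin regulatory light chain (MYL9) controls myosin activity after phosphorylation. Many of these genes are known targets of serum response factor (SRF) and its actin-sensing MRTF cofactors, which bind CArG boxes. CTGF and CYR61 encode secreted CCN proteins and are standard targets of the Hippo pathway effectors YAP and TAZ, which act through TEAD factors. Carcinoma cells can express parts of this set without being muscle or stromal cells.

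A probe was called detected where its deposited detection score exceeded 0.99. Between 27.2% and 28.5% of all probes were detected per array, and the median intensities lay between 84.9 and 88. Levels are log2 intensities after background correction and quantile normalization, and a difference of 2-fold, 1 on the log2 scale, was called. Where 1 array of a pair did not detect a probe, its level was raised to the lowest detected level of that array, which makes the ratio a lower bound, written "at least". The cells expressed epithelial genes: 10 of 11 colon epithelial markers were detected in every array, with a summed normalized level of 4.08e+04 in control, 4.24e+04 with miR-483-5p and 4.41e+04 with miR-551a. Of 11 smooth muscle markers only smoothelin (SMTN) was detected, in all 3 arrays, and MYH11, DES, CNN1, LMOD1 and MYOCD were not detected in any. The summed smooth muscle level was 818 in control, 873 with miR-483-5p and 923 with miR-551a. All summed levels given here include undetected probes, and so include background. SMTN alone had intensities of 367.9 in control, 422.3 with miR-483-5p and 469.9 with miR-551a. Of 14 fibroblast and stromal markers, 3 were detected in control, 4 with miR-483-5p and 2 with miR-551a, with summed levels between 819 and 835. PDGFRA was detected in all 3 arrays, COL3A1 in control and with miR-483-5p, and COL6A3 with miR-483-5p only. FAP was detected in control only and LUM in both overexpressing arrays. The other markers of that list, among them COL1A1, COL1A2, DCN, VIM, SPARC and THY1, were not detected in any array. None of the 6 endothelial markers was detected, yet their summed levels lay between 199 and 219. Within these lists, LUM, a matrix proteoglycan, was at least 1.58-fold higher with miR-483-5p; with miR-551a the bound was 2.67-fold. FAP, a fibroblast surface protease, was lower, by at least 2.18-fold and at least 2.41-fold. The epithelial antigen GPA33 was 2.29-fold and 2.57-fold lower, and keratin KRT8 was 1.69-fold and 2.81-fold higher. The label as smooth muscle genes thus describes the gene set and not a cell type in these arrays. In a bulk extract, a change in the share of cells and a change of RNA per cell cannot be told apart.

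Large differences from control were seen at TAGLN, which encodes transgelin, a calponin-family protein that bundles actin. The leading TAGLN probe, the brightest of 3, had an intensity of 110.9 in control, 542 with miR-483-5p and 1207.1 with miR-551a. Its log2 levels were 5.65, 8.91 and 10.09 in the same order. Control was close to background and both overexpressing arrays lay far above it. The level was 9.6-fold higher than control with miR-483-5p (log2 difference 3.26) and 21.7-fold higher with miR-551a (4.44). The control detection score, 0.99078, was just past the threshold, so both ratios rest on a dim denominator. The other TAGLN probes showed much less signal. The second read 67.6, 94.8 and 144 and was detected only with miR-551a, where it was at least 1.58-fold higher than control. The third read 73.4, 74.1 and 76 and was not detected in any array. Which transcripts each probe reads was not analysed here.

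ACTG2, the enteric smooth muscle gamma-actin, followed the same order. Its single probe had an intensity of 71.4 in control (score 0.28986, not detected), 315 with miR-483-5p and 777.3 with miR-551a. It went from background in control to a clear signal in both overexpressing arrays. The level was at least 5.11-fold higher with miR-483-5p and at least 13.6-fold higher with miR-551a. ACTA2, the vascular smooth muscle alpha-actin and a close paralog of ACTG2, went the other way. Its intensity was 405.1 in control, 287.2 with miR-483-5p and 259.5 with miR-551a, with all 3 values detected. The level was 1.59-fold lower with miR-483-5p (log2 difference -0.67) and 1.88-fold lower with miR-551a (-0.91), short of 2-fold in both. The probe sequences were not used here, and whether either actin probe also binds transcripts of other actins was not tested.

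MYL9, the regulatory light chain of smooth muscle and non-muscle myosin, resembled ACTG2 at its leading probe. The intensity was 77 in control (score 0.59816, not detected), 146.5 with miR-483-5p and 251 with miR-551a. The level was at least 1.69-fold higher with miR-483-5p, a bound below 2-fold, and at least 3.68-fold higher with miR-551a. The second MYL9 probe read 92.5, 103.5 and 108.8 and stayed below the detection threshold in every array.

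**Figure D1:**
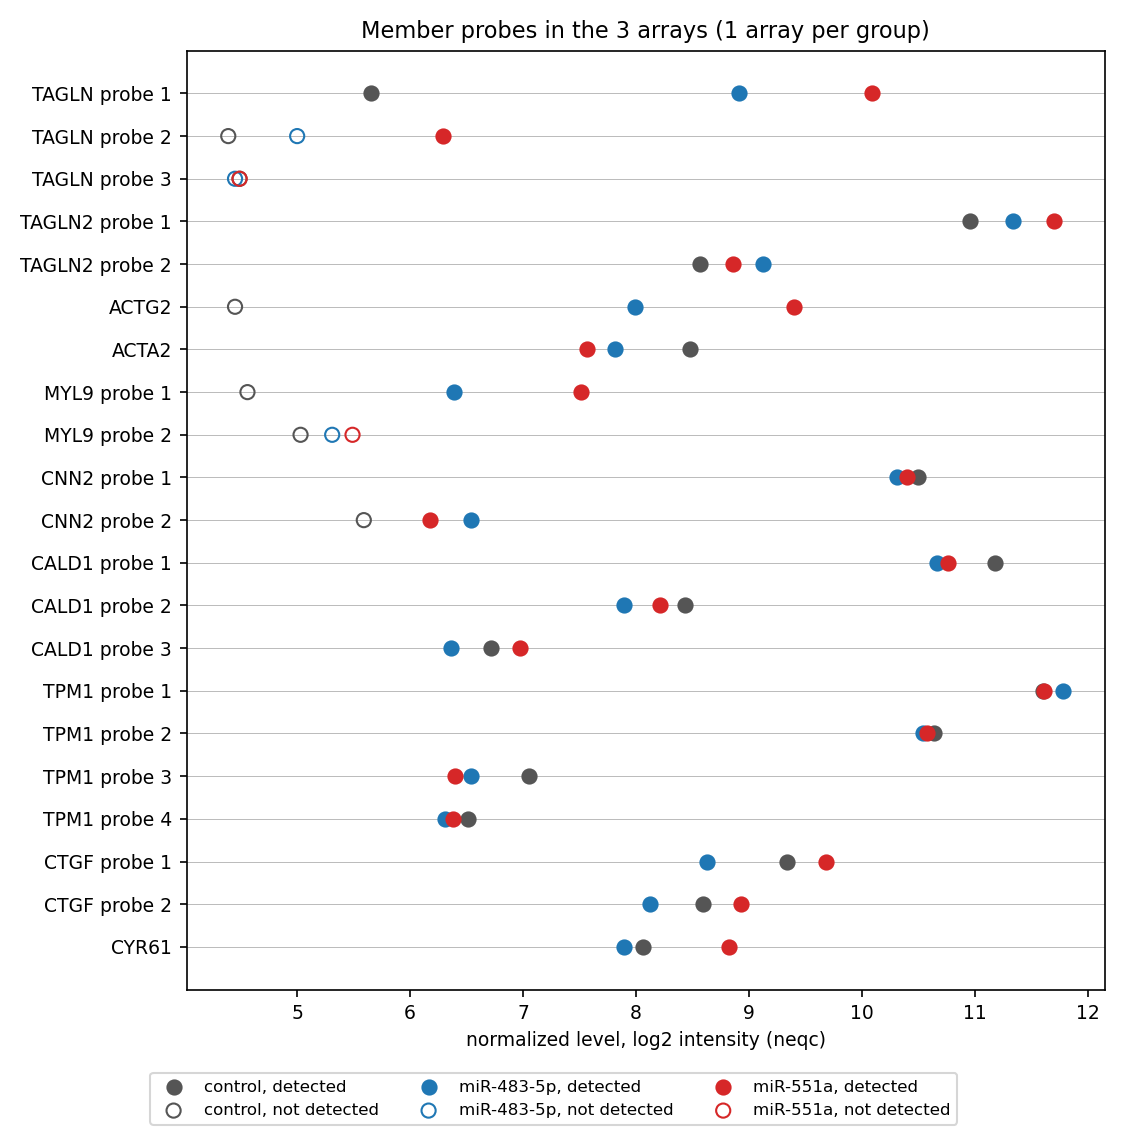
Normalized log2 intensity (horizontal axis) of each of the 21 probes (vertical axis) in the control (grey), miR-483-5p (blue) and miR-551a (red) arrays; open circles were not detected. The leading TAGLN probe, ACTG2 and the leading MYL9 probe are ordered control, miR-483-5p, miR-551a, whereas ACTA2 is highest in control.

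No probe of the remaining filament-binding members was called at 2-fold. TAGLN2, the transgelin of non-muscle cells, was bright in all arrays, with leading-probe intensities of 1945.6 in control, 2633.9 with miR-483-5p and 3583.1 with miR-551a. That probe was 1.3-fold higher with miR-483-5p and 1.67-fold higher with miR-551a. Its second probe read 427.5, 616.4 and 548.4, which is 1.47-fold and 1.23-fold higher, so both probes were above control but ordered the overexpressing arrays differently. CNN2, a calponin of non-muscle cells, had leading-probe intensities of 1439.1, 1322.4 and 1483.9 and differed by -0.19 and -0.11 on the log2 scale. The dim second CNN2 probe, with intensities of 109, 156.3 and 137.9, narrowly missed detection in control (score 0.98946). It was at least 1.88-fold higher with miR-483-5p and at least 1.46-fold higher with miR-551a, unlike the bright one.

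CALD1, the caldesmon that restrains actomyosin ATPase, tended to be lower. Its leading probe read 2258.6 in control, 1677 with miR-483-5p and 1903.7 with miR-551a, 1.44-fold and 1.34-fold lower. The second probe read 393.4, 298.9 and 369.7, 1.45-fold and 1.17-fold lower. At the third probe (165.2, 144.6 and 192.4) the difference was -0.37 with miR-483-5p and 0.25 with miR-551a. All 3 CALD1 probes were thus lower with miR-483-5p, but only 2 of 3 with miR-551a. TPM1, which stabilises actin filaments, had 4 detected probes that did not share a direction. The brightest read 3017.8, 3599.2 and 3353.7 and differed from control by 0.18 and 0.01 on the log2 scale. The next read 1569.6, 1538.8 and 1690 and differed by -0.11 and -0.06. These bright TPM1 probes were near control in both arrays. A further dim probe (191.1, 156 and 150.5) was 1.42-fold lower with miR-483-5p and 1.56-fold lower with miR-551a. The dimmest (150.7, 142.1 and 148.9) differed by -0.20 and -0.13.

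The CCN probes lay on opposite sides of control in the overexpressing arrays, each a single array. CTGF, a secreted regulator of matrix production and adhesion, had leading-probe intensities of 679.3 in control, 458.9 with miR-483-5p and 928.9 with miR-551a. It was 1.63-fold lower than control with miR-483-5p (log2 difference -0.70) and 1.27-fold higher with miR-551a (0.34). The second CTGF probe gave the same order, with intensities of 433.5, 339.3 and 571.2. There the level was 1.38-fold lower and 1.27-fold higher. CYR61, a secreted integrin ligand, read 323.6 in control, 298.6 with miR-483-5p and 535.6 with miR-551a. It was 1.13-fold lower with miR-483-5p (-0.18) and 1.69-fold higher with miR-551a (0.76). At all 3 CCN probes control lay between the overexpressing arrays, and no CCN probe differed from control by 2-fold.

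**Figure D2:**
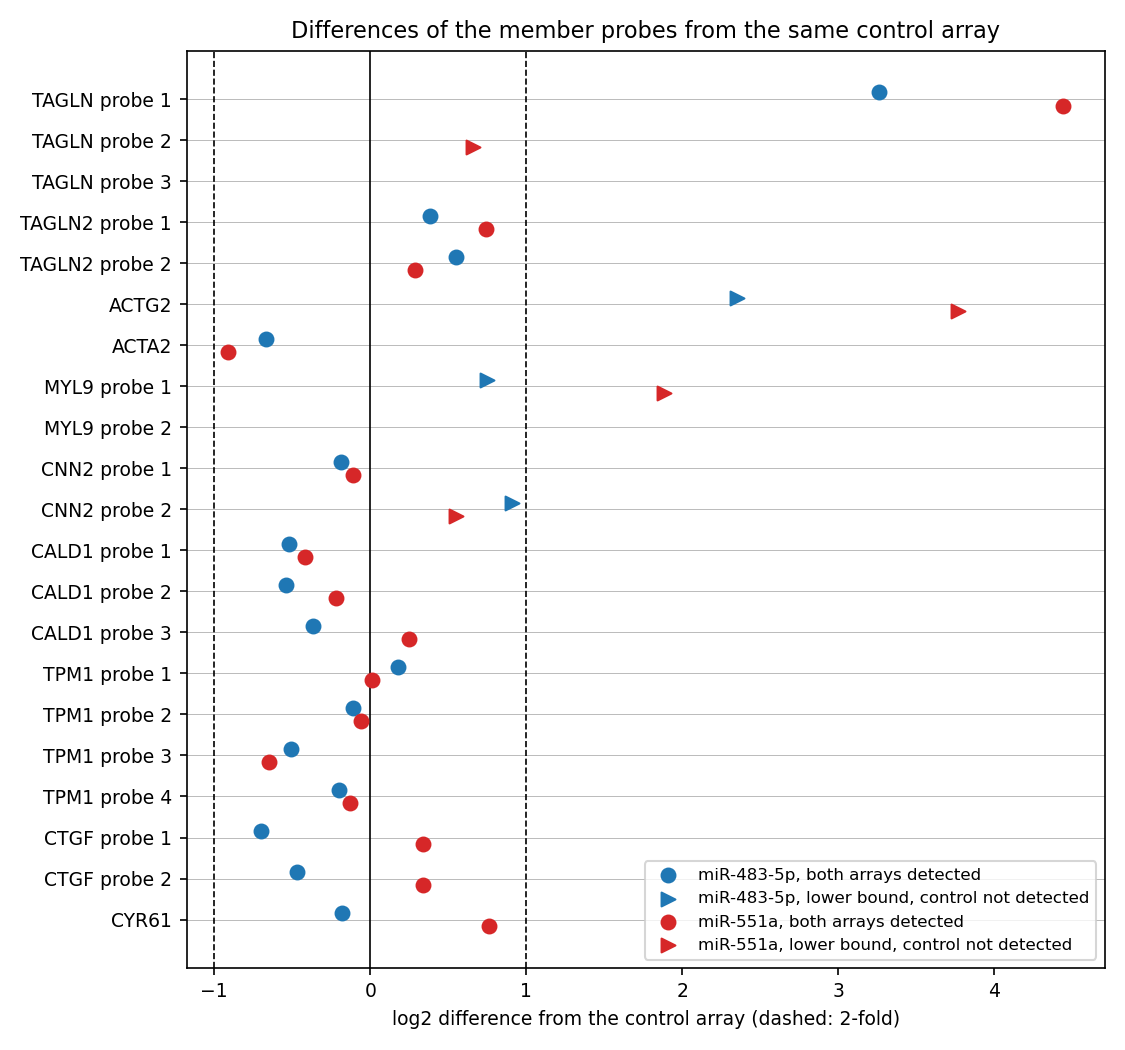
Log2 difference from the control array (horizontal axis) for each probe (vertical axis) with miR-483-5p (blue) and miR-551a (red); triangles are lower bounds where control did not detect the probe, and probes detected in neither array of a pair have no point. TAGLN and ACTG2 pass the dashed 2-fold line in both arrays and MYL9 in the miR-551a array, while the CTGF and CYR61 points lie on opposite sides of 0.

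Of the 21 probes, 18 could be compared between miR-483-5p and control, and 2 of them, TAGLN and ACTG2, were at least 2-fold higher. The same call was met upward by 0.305% and downward by 0.414% of all 13759 probes with a symbol. For miR-551a, 3 of 19 member probes (TAGLN, ACTG2 and MYL9) were at least 2-fold higher, beside 0.655% higher and 0.563% lower among 14039 probes. No member probe was at least 2-fold lower in either comparison. The genes were selected from these contrasts, so nothing is read from the members' counts against those shares. The median log2 difference of the member probes was -0.19 with miR-483-5p and 0.29 with miR-551a, against -0.01 and 0.00 over all probes. With miR-483-5p 7 member probes were above and 11 below 0, and with miR-551a 12 were above and 7 below. Both comparisons share the 1 control array, so values given side by side for them are not separate observations. The balance of calls over all probes with miR-551a depended on the scaling: 53.8% of called probes were higher at the main setting, 66.7% with median centring and 67.1% with median scaling and no background correction.

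The direct comparison of the overexpressing arrays takes no difference from the control array, although all 3 arrays were normalized together. Relative to miR-483-5p, the level with miR-551a was 2.27-fold higher at the leading TAGLN probe, 2.66-fold at ACTG2, 2.18-fold at the leading MYL9 probe and 2.07-fold at the leading CTGF probe. The MYL9 and CTGF calls depended on the processing: over 8 alternatives the log2 difference fell to 0.74 for MYL9, below 2-fold in 4 of them, and to 0.94 for CTGF, below 2-fold in 3. CYR61 was 1.91-fold and the second CTGF probe 1.76-fold higher. The second TAGLN probe, not detected with miR-483-5p, was at least 1.45-fold higher. TAGLN, ACTG2, MYL9 and both CCN genes were thus higher with miR-551a than with miR-483-5p at every probe detected in both arrays. ACTA2 differed by -0.24, and TPM1 probes by -0.17 to 0.06. The leading CNN2 probe differed by 0.09 and the second by -0.36. CALD1 probes were higher by 0.10, 0.32 and 0.61, and the TAGLN2 probes differed by 0.36 and -0.26. In all, 4 of 19 member probes passed 2-fold upward and 0 downward, beside 0.109% higher and 0.0291% lower among 13749 probes. This contrast also served to select the genes, and nothing is read from those counts. The member probes had a median of 0.32 and all probes one of 0.00.

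**Figure D3:**
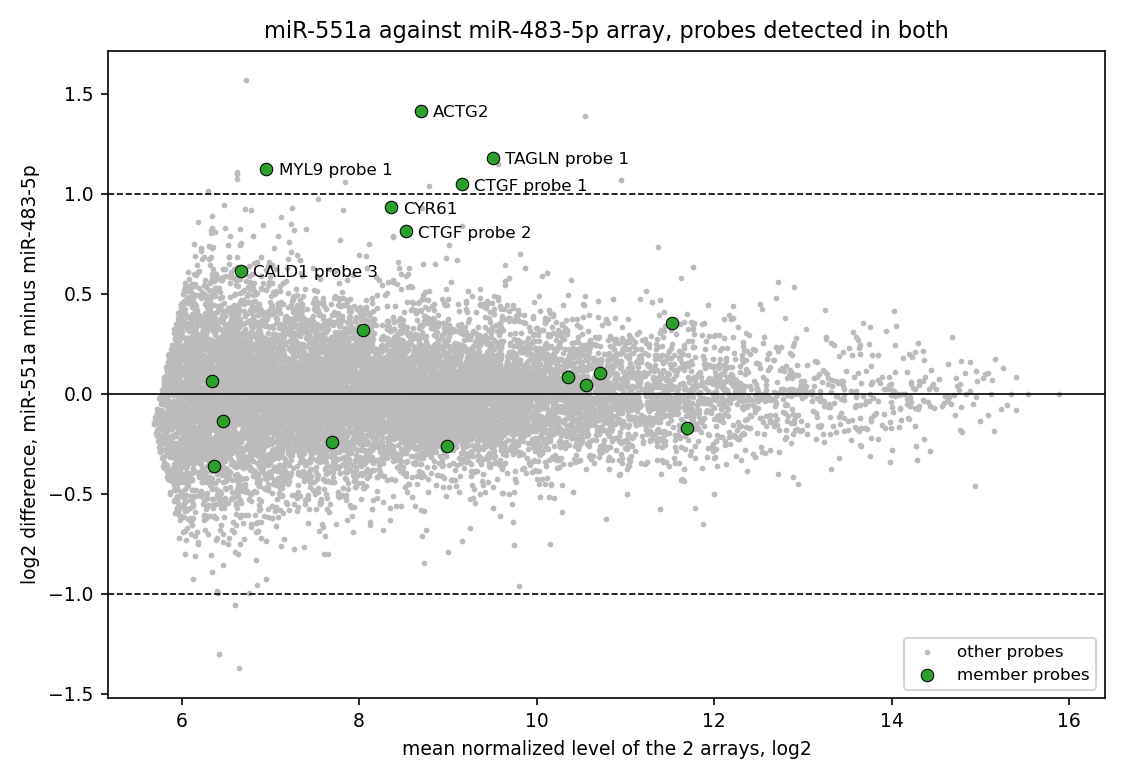
Log2 difference, miR-551a minus miR-483-5p (vertical axis), against the mean normalized log2 level of both arrays (horizontal axis) for the 12569 probes with a symbol that both arrays detected; the 18 member probes are green. ACTG2 and the leading probes of TAGLN, MYL9 and CTGF lie above the upper dashed 2-fold line at the main setting; MYL9 and CTGF drop below it under some alternatives.

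The bases before the transcription start were read for the members present in the RefSeq promoter table (GRCh38.p14), to show which carry letters of the SRF and TEAD motifs. Of the 10 members 7 had an entry, with 13 promoter windows of 300 bases. TAGLN, MYL9 and CYR61 had no entry, so their promoters were not searched for either motif. The CArG box, in its strict form of CC and GG around a run of A and T only, and the TEAD motif GGAATG were searched on both strands; they share no bases in these windows. CArG boxes with a mismatch, which include known SRF elements of the ACTA2 promoter, were not searched. A CArG box occurred in 1.29% of 35116 promoters and GGAATG in 14%. Among the member windows 2 held a strict CArG box and 4 held GGAATG. The ACTG2 window had CArG boxes starting 110 and 73 bases upstream, and that of CNN2 had a single one 89 bases upstream. CTGF held GGAATG at 169, 104 and 95 bases upstream. ACTA2 held it at 183 bases upstream in 1 of its 2 windows, and CALD1 held 1 copy in each of 2 of its windows. The 250 bases upstream of the start are shown for ACTG2 (chr2:73892758-73893007 on the plus strand), CNN2 (chr19:1026358-1026607 on the plus strand), ACTA2 (chr10:88952774-88953023 on the minus strand) and CTGF (chr6:131951373-131951622 on the minus strand), so that the smooth muscle actins can be set side by side and the motif letters of CNN2 and CTGF seen in place. Capitals mark the strict CArG boxes in ACTG2 and CNN2 and GGAATG in ACTA2 and CTGF.
ACTG2: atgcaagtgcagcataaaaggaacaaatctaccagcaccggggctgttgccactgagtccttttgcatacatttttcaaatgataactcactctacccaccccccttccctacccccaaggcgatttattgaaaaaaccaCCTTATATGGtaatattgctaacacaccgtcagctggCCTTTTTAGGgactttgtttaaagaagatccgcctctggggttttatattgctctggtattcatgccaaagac
CNN2: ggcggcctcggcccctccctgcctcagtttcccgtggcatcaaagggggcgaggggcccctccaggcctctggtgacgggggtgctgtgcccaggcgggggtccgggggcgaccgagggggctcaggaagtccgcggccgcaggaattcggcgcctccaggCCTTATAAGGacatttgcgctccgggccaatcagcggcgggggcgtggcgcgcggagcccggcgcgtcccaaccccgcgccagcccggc
ACTA2: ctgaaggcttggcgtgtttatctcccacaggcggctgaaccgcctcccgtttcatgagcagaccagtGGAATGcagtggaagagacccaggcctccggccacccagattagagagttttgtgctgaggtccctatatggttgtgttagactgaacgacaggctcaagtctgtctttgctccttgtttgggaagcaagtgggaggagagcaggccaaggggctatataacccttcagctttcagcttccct
CTGF: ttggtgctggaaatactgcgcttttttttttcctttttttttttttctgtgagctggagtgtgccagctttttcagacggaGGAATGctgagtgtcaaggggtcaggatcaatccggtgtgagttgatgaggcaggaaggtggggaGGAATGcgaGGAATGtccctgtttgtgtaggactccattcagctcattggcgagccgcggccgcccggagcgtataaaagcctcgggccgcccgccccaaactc

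ACTG2, at least 13.6-fold higher with miR-551a, held strict CArG boxes by sequence. CNN2 also held a strict CArG box, with its bright probe near control and its dim probe at least 1.46-fold higher with miR-551a. TAGLN and MYL9, the other members called with miR-551a, had no promoter entry. Whether the motifs bear on any difference was not tested, and no match is a measured binding site.

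Related genes outside the set were described from lists of known pathway members, by the median over genes and the number of probes past 2-fold. The lists overlap and are not separate observations. ACTB, ACTG1, CNN3, TPM2 and TPM4 stand among both the paralogs and the SRF targets. SRF stands among both SRF targets and cofactors, and TGFB2 among both YAP targets and TGF-beta genes. Paralogs of the members showed 0 of 15 probes past 2-fold in either comparison with control. Their medians over 8 measured genes were 0.04 with miR-483-5p and -0.03 with miR-551a, against -0.01 and 0.00 over all genes. Of the cytoplasmic actins, ACTG1 differed by -0.29 and -0.13 at its brighter probe and by 0.13 and -0.01 at the other. The 3 ACTB probes differed by between -0.05 and 0.31 with miR-483-5p and between 0.16 and 0.65 with miR-551a. MYL6, an essential light chain of smooth muscle and non-muscle myosin, differed by 0.24 and 0.55 at 1 probe and 0.21 and 0.52 at the other. The 4 other CCN genes, NOV, WISP1, WISP2 and WISP3, were not detected in any array.

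SRF and MRTF targets had 21 of 28 genes measured and 0 of 34 probes past 2-fold in either direction, with medians of -0.01 with miR-483-5p and 0.09 with miR-551a. The filament-severing protein cofilin, CFL1, differed by 0.19 and 0.30. SRF itself was steady, with intensities of 523.5, 528.7 and 526.7. Among SRF cofactors no probe passed 2-fold, and the medians were -0.01 with miR-483-5p and 0.36 with miR-551a. The LIM protein CRIP1 led that list by level and differed by 0.65 and 0.86, and CSRP1 differed by -0.08 and 0.35. Whether CRIP1 acts on SRF was not tested here.

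YAP and TEAD targets outside the CCN family had 11 of 20 genes measured. With miR-551a 1 of 17 probes was at least 2-fold higher and 0 lower, and with miR-483-5p 0 of 16 passed in either direction. The list median was 0.20 with miR-551a and 0.12 with miR-483-5p, and the latter turned to -0.15 for genes detected in both arrays and to -0.16 with the brightest probe per gene. The called gene was F3, tissue factor, the cell-surface starter of coagulation. Its leading probe read 240.4 in control, 363.8 with miR-483-5p and 545.6 with miR-551a, 1.67-fold and 2.52-fold higher, and its second probe was at least 1.76-fold higher with miR-551a. The membrane repair protein myoferlin, MYOF (listed as FER1L3), read 471.6, 704 and 916.6 and was 1.52-fold and 1.91-fold higher. ASAP1 (listed as DDEF1) differed by 0.24 and 0.19 at its brighter probe, and the stress gene GADD45A by -0.17 and -0.02. Other targets of the list were below control: CRIM1 differed by -0.72 and -0.57 and NT5E by -0.66 and -0.69, both named after their values were seen. Hippo pathway genes and TEAD factors had 0 of 8 probes past 2-fold and medians of 0.15 and 0.11. Among these YAP1 read 1476.5, 1740.1 and 2019.5, VGLL4 differed by 0.10 and 0.04, and the kinase STK4 by 0.28 and 0.19.

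TGF-beta signalling genes, which drive several members in mesenchymal cells, had 7 of 11 genes measured, 0 of 10 probes past 2-fold and medians of -0.24 and -0.21. The receptor TGFBR2 differed by -0.52 and -0.47 at its brightest probe, the matrix target TGFBI by -0.56 and -0.42, and SMAD4 by -0.24 and -0.21.

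**Figure D4:**
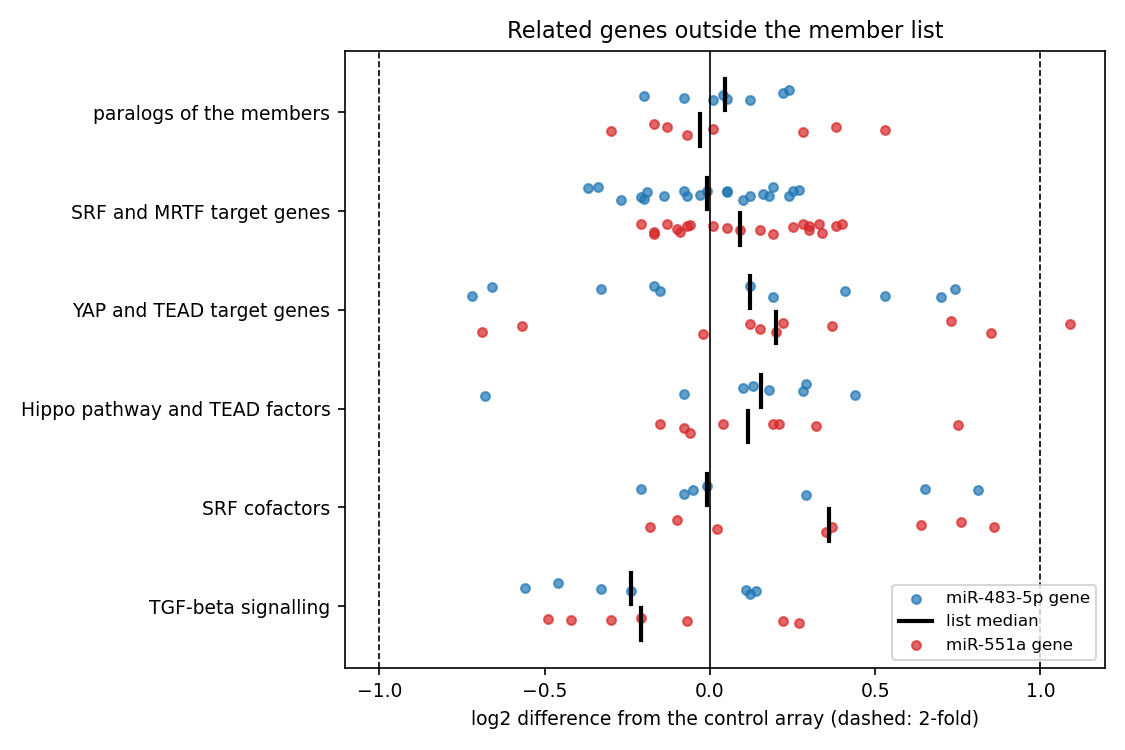
Log2 difference from control (horizontal axis) per gene, as the mean of its compared probes, for 6 lists of related genes (vertical axis), with miR-483-5p in blue, miR-551a in red and the list medians as black bars. The list medians lie between -0.24 and 0.36, and F3 is the gene beyond the 2-fold line. The lists share some genes.

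The probes whose 3 levels lay nearest to those of the leading TAGLN probe were found by the Euclidean distance of log2 levels after subtraction of each probe's mean, over 13115 probes with members left out. With 3 arrays this describes shape only, and levels of undetected probes entered as they stood. KRT17, a basal keratin, was nearest (distance 0.42), with intensities of 134.7 in control, 982.5 with miR-483-5p and 2621.7 with miR-551a. KRT6B, a stress keratin, followed at 1.16 with intensities of 142.3, 367.5 and 733.3. KRT16, a partner of KRT6 keratins, lay at 1.48 with 80.8 (not detected in control), 124.6 and 250.3. The WNT inhibitor DKK1 lay at 1.66 (113.3, 195.5 and 333.2) and the caveolar protein CAV1 at 1.77 (92.1, not detected in control, 149.3 and 201.9). DKK1 was 2.53-fold and 4.97-fold higher than control, and CAV1 at least 1.74-fold and at least 2.71-fold higher. By the same measure ACTG2 lay at 0.36 and the leading MYL9 probe at 1.19 from TAGLN. With undetected probes raised to the lowest detected level of their array, KRT17, KRT6B and DKK1 kept their distances and were the nearest 3. KRT16 then lay at 2.27 (rank 24 among the searched probes) and CAV1 at 2.26 (rank 22), so neither stayed among the 5 nearest. ACTG2 then lay at 0.67 and the leading MYL9 probe at 2.07.

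The size of the largest differences depended on how background was treated, while their direction did not. Over 8 alternatives the leading TAGLN probe ranged from 2.24 to 3.26 on the log2 scale with miR-483-5p, and over 9 from 3.35 to 4.49 with miR-551a. ACTG2 ranged from 1.46 to 3.54 with miR-483-5p, and the leading MYL9 probe from 0.36 to 1.83, so that its side of the 2-fold threshold changed. With miR-551a ACTG2 ranged from 2.71 to 4.95 and the leading MYL9 probe from 1.13 to 2.95. The ACTG2 and MYL9 values are bounds, except with the own level of the undetected control value. The brighter members moved little: ACTA2 stayed between -0.67 and -0.55 with miR-483-5p, and CYR61 between 0.64 and 0.83 with miR-551a. The authors' deposited table, in which the miR-551a array is scaled to the control median without background correction, gave a log2 difference of 3.40 for the leading TAGLN probe with miR-551a. In the authors' deposited table ACTA2 differed by -0.69, the leading CTGF probe by 0.40 and CYR61 by 0.68.

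**Figure D5:**
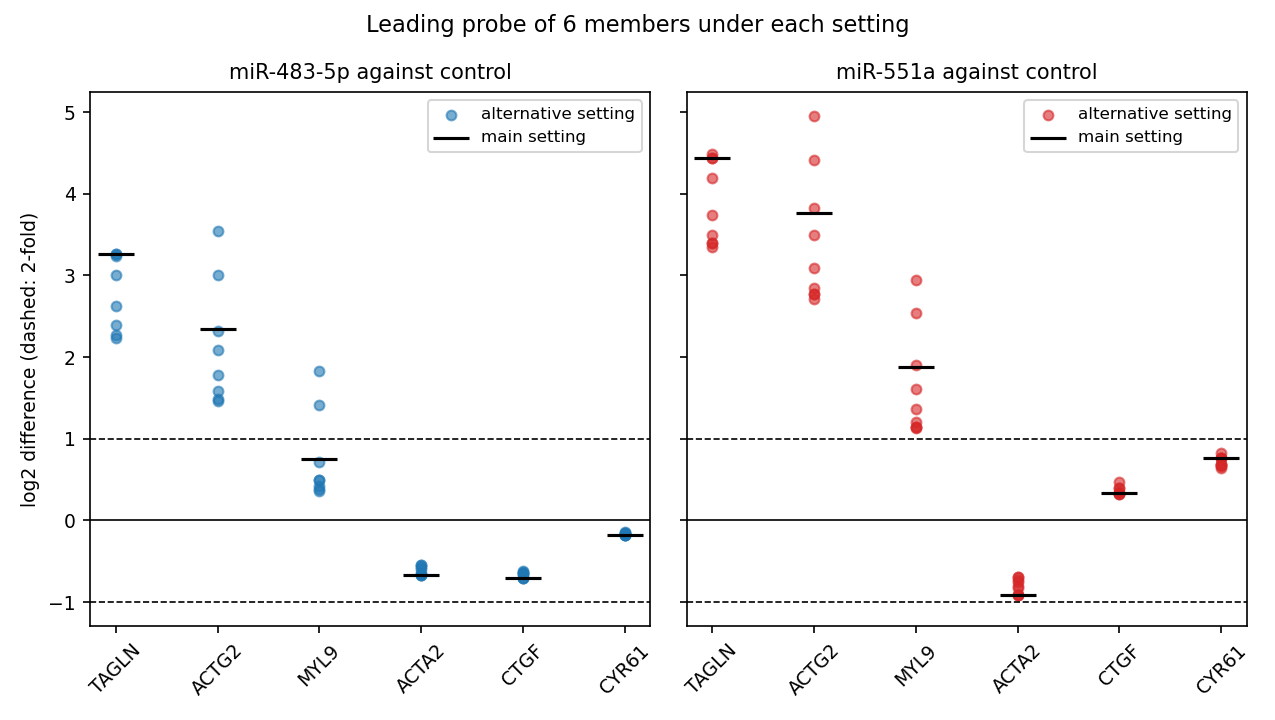
Log2 difference from control (vertical axis) of the leading probe of 6 members (horizontal axis) at the main setting (black bar) and under each alternative (points), with miR-483-5p on the left and miR-551a on the right. TAGLN and ACTG2 stay above the dashed 2-fold line under every alternative drawn, and the MYL9 points with miR-483-5p fall on both sides of it.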

How the data were processed

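The authors deposited non-normalized intensity values of 48803 probes for each of 3 arrays, with a detection score, a fraction from 0 to 1, beside each intensity per the file headers. Extraction used the miRVANA kit and biotin labelling the MessageAmp kit, per the labels' protocols. No source used here names the scanner software. The deposited normalized intensity table multiplies the miR-551a array by 0.9681. Its column named for miR-483 equals 0.934 times the raw miR-551a values at each of the 48803 probes, so it was not used for miR-483-5p. 

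Here the 3 arrays were normalized jointly in R 4.3.3 by the limma 3.58.1 function neqc (background from the detection scores, offset 16, quantile normalization). Counts and differences were computed in Python 3.11.15 with pandas 2.3.3 and drawn with matplotlib 3.10.9. Probes with a gene symbol, and not a UniGene cluster (12646 targets), were compared if at least 1 array of the pair detected them. List medians use the mean of a gene's compared probes at their own levels. Of 25200 symbols, 7612 matched no current or older RefSeq symbol and were kept as listed. MYL12A and MYL12B matched no probe.

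Members, lists and alternatives were chosen with earlier results of these data known. Named were every member probe, list genes past 2-fold against control with up to 3 further genes of highest level per list, and the 5 patterns nearest to TAGLN. The values of 1 list that this rule covers are not reported here. The scripts were tested on simulated data. With 1 array per group no test, replicate error or left-out replicate was possible.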

Additional observations from a re-analysis of the deposited data

How the results depend on the processing

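No paired analysis was possible because each group had 1 array and no result comes from a test. No called difference of a member probe changed sign under any alternative. Against control, the calls of TAGLN and ACTG2 in both arrays and of MYL9 with miR-551a held under every alternative run. Between the overexpressing arrays the MYL9 call was lost in 4 alternatives (down to 0.74) and the CTGF call in 3 (down to 0.94). The CYR61 difference reached 1.01 with median centring. MYL9 with miR-483-5p passed 2-fold in 2 alternatives and the second TAGLN probe with miR-551a in 2 against control and in 2 against miR-483-5p (up to 1.30). The small differences of the leading CNN2 probe (-0.11) and the second TPM1 probe (-0.06) with miR-551a reached 0.03 and 0.09. The alternatives with a stricter detection score and with the own level of undetected probes, and the distances with undetected probes at the lowest detected level, were chosen after seeing the data.

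Counts over all probes moved with the background correction and the filter. At the main setting they were 42 higher and 57 lower with miR-483-5p, 92 and 79 with miR-551a, and 15 and 4 between the overexpressing arrays, with 4 member probes. In the same order they were 15 and 18, 44 and 31, and 6 and 0, with 2 member probes, without background correction. Normexp with offset 50 gave 15 and 20, 47 and 38, and 7 and 0, with 2 member probes, and neqc with offset 50 gave 18 and 24, 52 and 44, and 7 and 1, with 2. Median scaling without background correction gave 16 and 17, 53 and 26, and 9 and 0; the deposited table gave the same 53 and 26 for miR-551a. With a score above 0.95, 64 probes were higher with miR-483-5p, and 26 higher and 20 lower between the overexpressing arrays. Own levels of undetected probes gave 79 and 95 with miR-483-5p, 134 lower with miR-551a, and 42 and 25 between the overexpressing arrays. No detection filter gave 92 and 100, 145 and 139, and 48 and 31. The share of calls that were higher between the overexpressing arrays was 78.9% at the main setting and 100% without background correction. The median of YAP and TEAD targets with miR-483-5p turned from 0.12 to -0.15 for genes detected in both arrays and to -0.16 with the brightest probe per gene. An offset compresses dim ratios by construction and an added filter removes dim probes; for the other shifts the cause was not tested. Dim probes (TAGLN, ACTG2 and MYL9 in control) limit the size of the ratios given.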
